A study of Mus musculus with 12 samples.

Results

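The contractile genes that mark myoepithelial cells were followed in C57MG cells, a mouse mammary epithelial line, after 24 h with Rspo2, Wnt3a, both proteins or the carrier protein BSA. The set comprised the 10 genes *Acta2*, *Actg2*, *Tagln*, *Cnn1*, *Cnn2*, *Myl9*, *Tpm1*, *Tpm2*, *Myh11* and *Vcl*, and every probe carrying one of these symbols in the scanner files was taken, which gave 19 of the 41174 distinct probes on the array. All 12 cultures were grown in serum, seeded overnight and moved to plain medium before treatment. The BSA group received carrier alone, the Rspo2 group 100 ng/ml recombinant human R-spondin2, the Wnt3a group 100 ng/ml recombinant mouse Wnt3a, and the combined group both at 100 ng/ml. Each group had 3 monolayers of this single line and each monolayer had its own single-color array. The spread between arrays is therefore that between parallel cultures of the same cells and between their arrays.

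Myoepithelial cells form the outer layer of mammary ducts and alveoli and contract to eject milk. Their force comes from filaments of smooth muscle actins, which are stiffened and gated by tropomyosins, calponins and transgelin and pulled by a myosin made of heavy chains and regulatory light chains. Vinculin couples these filaments to adhesions at the cell surface. Many of the genes share regulation by serum response factor (*Srf*), which binds CArG boxes together with myocardin or its relatives. The same proteins are made by smooth muscle, pericytes and activated fibroblasts, so they do not by themselves identify a myoepithelial cell.

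A relative signal, used below for levels, is the background-subtracted intensity of a probe divided by the 75th percentile of all probes on its array, and changes are differences of group means on the log2 scale with their standard error (SE). Levels of different probes were not read as relative amounts of their transcripts. They were set against each other in sums over marker lists, in choosing brightest probes and in within-array differences between probes of the same gene. The 75th percentile lay between 773.9 and 1146 intensity units, and between 51.28% and 64.15% of probes were well above background, the highest share being that of BSA replicate 1. Arrays of the same group correlated at 0.989 to 0.996 and arrays of different groups at 0.977 to 0.993. The 12 arrays came from 3 slides. All BSA arrays were on slide 1 beside the first Rspo2 replicate. The other Rspo2 arrays were on slide 2, next to Wnt3a replicates 1 and 2. The third Wnt3a array shared slide 3 with the whole combined group. BSA therefore never shared a slide with Wnt3a or with the combination. The spread within BSA and within the combined group holds no difference between slides, while the change between these groups can hold one.

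The label of the cells was set against marker genes. Of the 8 basal myoepithelial markers, *Krt14*, *Krt17*, *Trp63* and *Itgb4* were well above background on all 12 arrays and *Krt5* on 10. In contrast *Cdh3* was so on 2 arrays and *Jag2* on 1. *Oxtr*, the oxytocin receptor through which these cells are made to contract, was so on 1 array. Of the 9 epithelial keratin and junction markers, the keratin *Krt8* was well above background on all 12 arrays, at 33.8 to 97.7 intensity units, and *Krt7* on 9. The other keratins and the junction and splicing genes were so on few or none, with *Cldn4* on 4, *Epcam* on 2 and *Cdh1*, *Cldn7* and *Esrp1* on 0. The luminal list was divided, with the regulators *Gata3* (2660 to 4550 intensity units) and *Esr1* (128 to 312) well above background on all 12 arrays and *Elf5*, *Pgr* and the milk protein gene *Csn2* on 0. In contrast 10 of the 11 fibroblast or mesenchymal markers, among them *Vim*, *Col1a1*, *Col3a1* and *Pdgfrb*, were well above background on all 12 arrays. The cells thus carried part of the basal list, part of the luminal list and most of the mesenchymal list, with *Cdh1* and *Cldn7* not well above background.

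Of the 19 probes, 16 probes from 8 genes had the flag for signal well above background throughout at least 1 group and were tested together with the other detected probes, 22750 in all. In the plot of signals by array most of these probes rose in steps from BSA to the combination. With Rspo2 plus Wnt3a, 13 of the 16 probes, from 6 genes, were higher than BSA at an adjusted p under 0.05, where 21.9% of all tested probes were higher and 17.3% lower. None of the 16 was lower by this limma fit, nor at an unadjusted p under 0.05, and the methods' t-test called none lower either. A change of at least 2-fold as well was reached by 4 probes from 3 genes (*Acta2*, *Tagln* and *Tpm1*), against 1.28% of all probes. The brightest probe of each of these genes stayed below 2-fold, at 1.72-fold for *Acta2*, 1.93-fold for *Tagln* and 1.88-fold for *Tpm1*. The median change of the 16 probes was 0.90 and that of all tested probes 0.04.

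**Figure D1:**
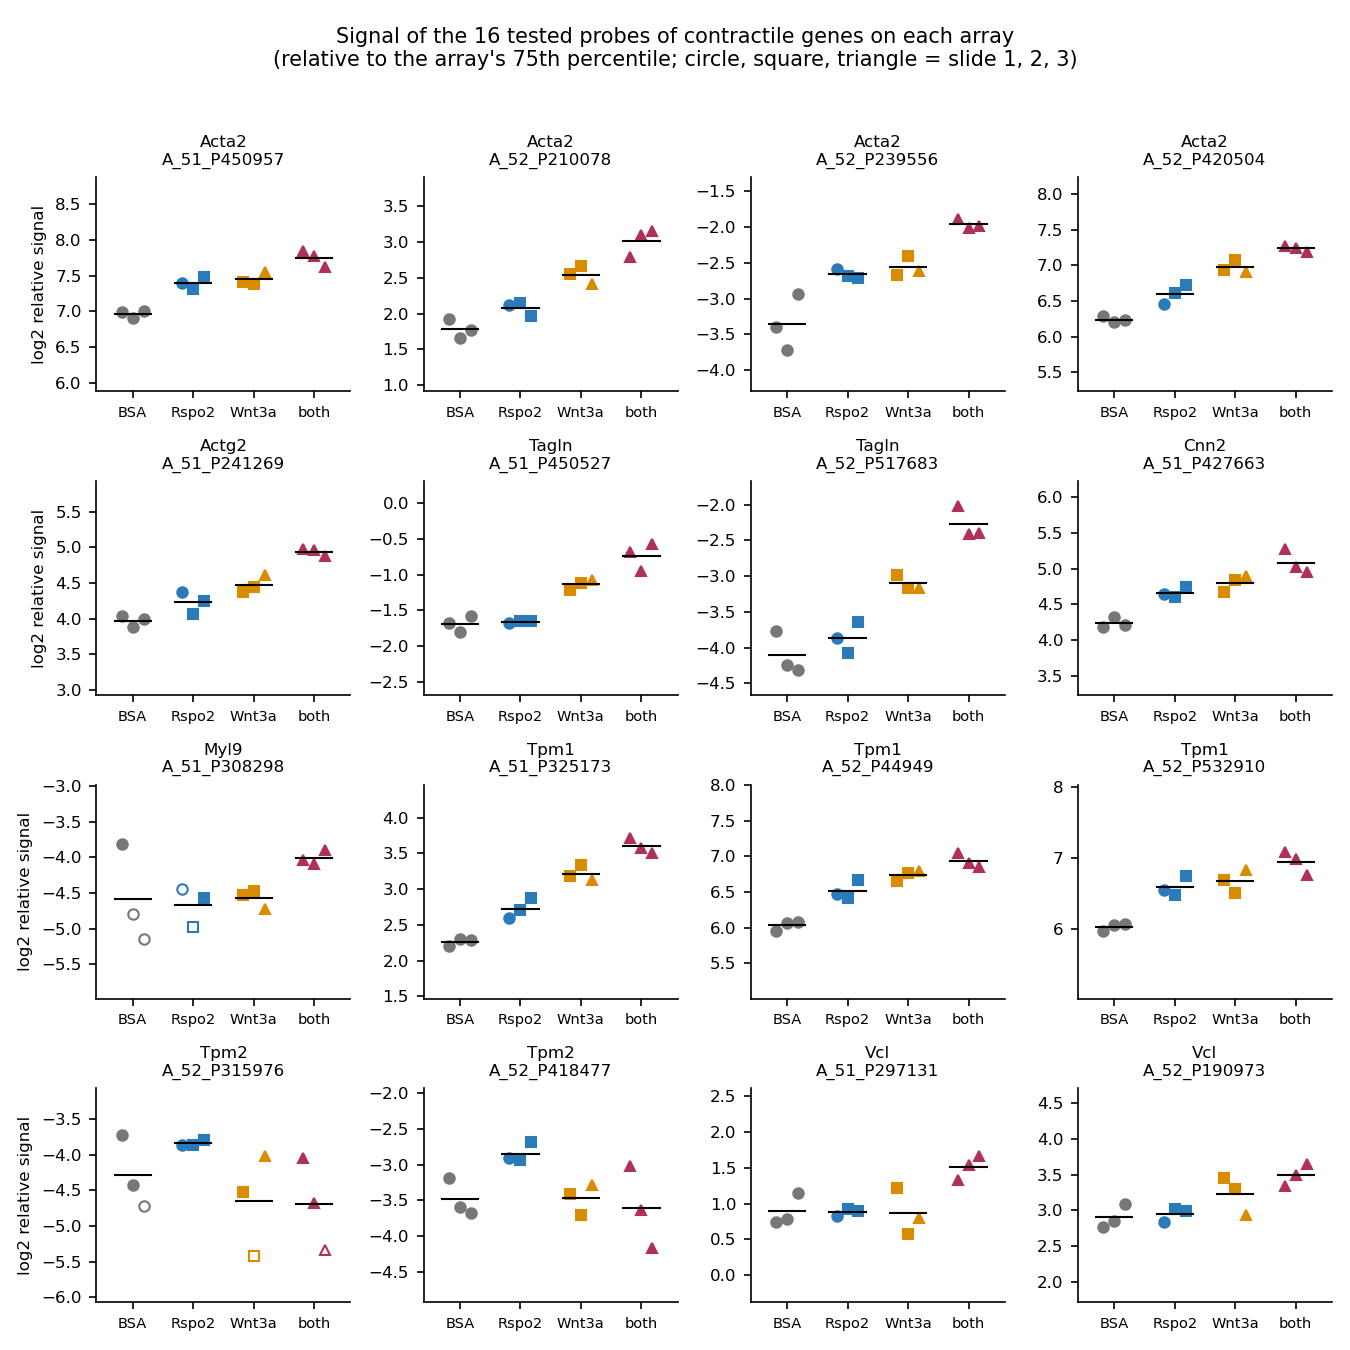
Each panel shows 1 tested probe; points are single arrays (log2 relative signal, 3 arrays a group), black lines are group means, the marker shape gives the slide and open markers are values not well above background. In 13 of the 16 panels all 3 arrays of the combination (both) lie above all 3 BSA arrays; the exceptions are the Myl9 probe and the 2 Tpm2 probes.

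Wnt3a alone raised 11 of the 16 probes, from 5 genes, where 18.3% of all probes were higher and 13.2% lower, and 1 of them, a *Tagln* probe, passed 2-fold (0.404% of all probes). The median change was 0.56, with 0.00 over all probes. Rspo2 alone raised 7 probes from 3 genes, *Acta2*, *Cnn2* and *Tpm1*, where 10.9% of all probes were higher and 5.93% lower. The median change with Rspo2 was 0.39 against 0.01 over all probes, and no member passed 2-fold (0 also at an unadjusted p under 0.05 and by the methods' t-test), as did 0.101% of all probes. These 3 comparisons share the BSA arrays and are not independent of each other. The 3 arrays of a treatment lay above all 3 BSA arrays for 10 probes with Rspo2 (26.3% of all probes did so), for 11 with Wnt3a (25.9%) and for 13 with both (30.9%).

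**Figure D2:**
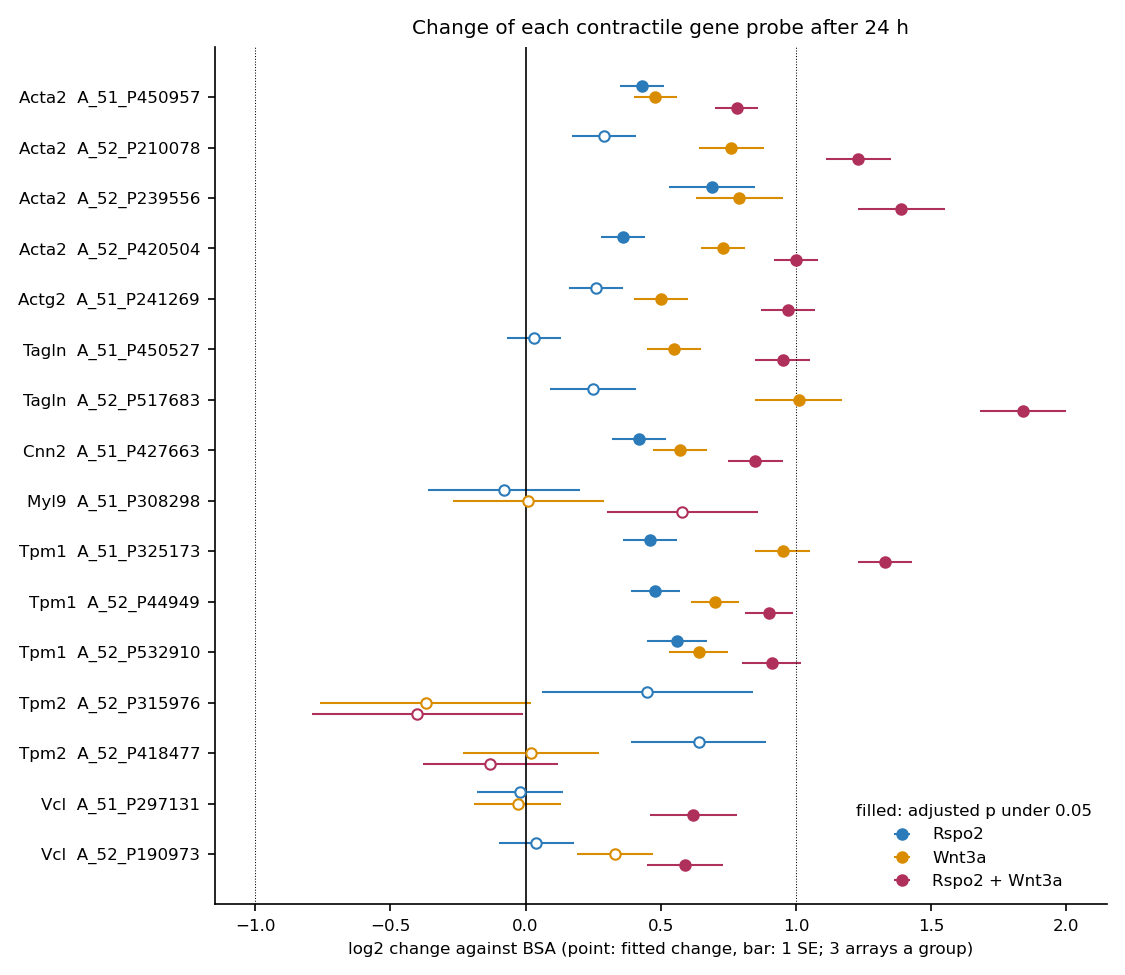
Fitted log2 change of each tested probe against BSA for Rspo2, Wnt3a and the combination, with bars of 1 SE; filled points have an adjusted p under 0.05 and dotted lines mark a change of 2-fold. Probes of Acta2, Actg2, Tagln, Cnn2 and Tpm1 lie to the right of 0 under all 3 treatments, the 2 Vcl probes move off 0 with the combination, and the 2 Tpm2 probes stay near 0 or below it once Wnt3a is present.

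The actins come first. *Acta2* (chr19:34240336-34255585 in GRCm38.p6) encodes the α-smooth muscle actin that is the usual marker of myoepithelial cells and had 5 probes. On the probe A_51_P450957 the relative signal was 127, 120 and 128 with BSA, 169, 159 and 178 with Rspo2, 170, 168 and 187 with Wnt3a, and 231, 219 and 196 with both. The Rspo2 and Wnt3a arrays overlapped each other, and both groups lay apart from BSA below and the combination above. Rspo2 raised it by 0.43 ± 0.08 (adjusted p = 0.0159), Wnt3a by 0.48 ± 0.08 (adjusted p = 0.00262) and the combination by 0.78 ± 0.08 (adjusted p = 7.26e-05). The size of these changes depended on the processing. Over 19 alternatives they ran from 0.07 to 0.47 with Rspo2, 0.04 to 0.51 with Wnt3a and 0.45 to 0.85 with both.

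A second *Acta2* probe, A_52_P420504, printed on 10 spots, read 78.4, 73.3 and 75 with BSA, 87.9, 98.1 and 107 with Rspo2, 123, 134 and 120 with Wnt3a, and 154, 152 and 146 with both. Here the 4 groups did not overlap and stood in that order. Rspo2 raised it by 0.36 ± 0.08 (adjusted p = 0.0224), Wnt3a by 0.73 ± 0.08 (adjusted p = 0.000359) and the combination by 1.00 ± 0.08 (adjusted p = 1.27e-05), just under the 2-fold line. Over 19 alternatives these changes ran from 0.05 to 0.44, 0.33 to 0.76 and 0.63 to 1.09. A_52_P210078 rose by 0.76 ± 0.12 with Wnt3a and by 1.23 ± 0.12 with both, or 2.35-fold (adjusted p = 2.9e-05), and its 0.29 ± 0.12 with Rspo2 did not pass (adjusted p = 0.105). A_52_P239556, a dim probe read at 87.1 to 142 intensity units with BSA and 238 to 266 with both, rose by 0.69 ± 0.16, 0.79 ± 0.16 and 1.39 ± 0.16 with Rspo2, Wnt3a and both (adjusted p = 0.0239, 0.00544 and 0.000126). The fifth probe, A_52_P644232, was not well above background on any of the 12 arrays and has no change to give. All 4 measurable probes of *Acta2* thus rose with Wnt3a and with the combination, and 3 of the 4 with Rspo2.

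*Actg2* (chr6:83512909-83536251) encodes the γ-smooth muscle actin of gut and other visceral muscle. Its relative signal was 16.5, 14.7 and 16 with BSA, 20.6, 16.8 and 19.1 with Rspo2, 20.8, 21.7 and 24.4 with Wnt3a, and 31.6, 31.1 and 29.5 with both. The combined arrays stood well clear of every other array. The rise was 0.50 ± 0.10 with Wnt3a (adjusted p = 0.00366) and 0.97 ± 0.10, or 1.96-fold, with both (adjusted p = 3.8e-05), while the 0.26 ± 0.10 with Rspo2 did not pass (adjusted p = 0.0854). The scanner software took very bright spots from a second scan at low detector gain. For the *Actg2* probe it did so on the 3 combined arrays and on no other, and the part of this switch in the difference was not tested. The probes A_51_P450957 and A_52_P420504 of *Acta2* came from the low-gain scan on all 12 arrays. Smooth muscle and striated muscle actins are close to identical in sequence, and how far each probe separates them was not tested.

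Among the actin-binding regulators, *Tagln* (chr9:45929628-45936058), which encodes transgelin or SM22α, an early marker of smooth muscle differentiation, showed the largest change of the 16 probes. The probe A_52_P517683 read 0.0731, 0.0526 and 0.0503 with BSA, 0.0683, 0.0594 and 0.0803 with Rspo2, 0.127, 0.112 and 0.112 with Wnt3a, and 0.246, 0.188 and 0.191 with both. BSA and Rspo2 overlapped, Wnt3a lay above them and the combination above Wnt3a. It rose 2.02-fold with Wnt3a (1.01 ± 0.16, adjusted p = 0.00189) and 3.58-fold with both (1.84 ± 0.16, adjusted p = 1.92e-05). This probe was dim, at 54.4 to 69.5 intensity units with BSA and 181 to 232 with both, and the size of its change depended on the processing. Over 19 alternatives the change ran from 0.24 to 1.28 with Wnt3a and from 0.79 to 2.05 with both. The other *Tagln* probe, A_51_P450527, lay between 0.287 and 0.335 on BSA arrays, between 0.433 and 0.473 on Wnt3a arrays and between 0.517 and 0.675 on combined arrays, a rise of 0.55 ± 0.10 (adjusted p = 0.00315) and 0.95 ± 0.10 (adjusted p = 6.24e-05). With Rspo2 alone the 2 probes gave 0.25 ± 0.16 and 0.03 ± 0.10, and neither passed (adjusted p = 0.306 and 0.879). The probes agreed in direction and order but not in size. The log2 signal of the first less that of the second, taken within each array, went from -2.43 ± 0.32 (SD, n = 3) with BSA to -1.54 ± 0.25 with both, with ranges of -2.73 to -2.10 and -1.82 to -1.34 that did not overlap.

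The calponins bind actin and restrain myosin; *Cnn1* is the form typical of differentiated smooth muscle and *Cnn2* is made by many cells. *Cnn2* (chr10:79988600-79995400) read 18.1, 19.9 and 18.5 with BSA, 24.9, 24.2 and 26.7 with Rspo2, 25.4, 28.7 and 30 with Wnt3a, and 38.8, 32.7 and 30.9 with both. Each treatment lay above BSA, and the Rspo2 and Wnt3a arrays overlapped each other. The rises were 0.42 ± 0.10 (adjusted p = 0.024), 0.57 ± 0.10 (adjusted p = 0.00267) and 0.85 ± 0.10 (adjusted p = 0.000127) with Rspo2, Wnt3a and both. Over 19 alternatives they ran from 0.08 to 0.46, 0.26 to 0.64 and 0.58 to 0.92. The low-gain scan supplied this probe on 7 arrays, namely the 3 combined ones, BSA replicate 2, Rspo2 replicate 1 and Wnt3a replicates 1 and 3. Within the Wnt3a group the low-gain arrays gave the lowest and the highest value.

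*Cnn1* (chr9:22099221-22109221) was not tested. Its probe was well above background on BSA replicate 1, Rspo2 replicate 3 and combined replicates 1 and 2 only. Its relative signal was 0.0283, 0.00774 and 0.0155 with BSA, 0.00928, 0.0131 and 0.0992 with Rspo2, 0.0167, 0.0163 and 0.0178 with Wnt3a, and 0.0288, 0.0227 and 0.0206 with both. The highest single value was an Rspo2 array, and the groups overlapped, so the calponin typical of smooth muscle was not detectable above background in a whole group under any treatment.

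The tropomyosins lie along the actin filament and set which myosins and binding proteins reach it. *Tpm1* (chr9:67022590-67049672) had 3 probes and all of them rose under all 3 treatments. The probe A_51_P325173 read 4.62, 4.91 and 4.9 with BSA, 6.02, 6.54 and 7.35 with Rspo2, 9.07, 10.1 and 8.73 with Wnt3a, and 13.1, 12 and 11.3 with both, 4 groups without overlap. It rose by 0.46 ± 0.10 (adjusted p = 0.0189), 0.95 ± 0.10 (adjusted p = 0.000192) and 1.33 ± 0.10 (adjusted p = 4.21e-06), the last being 2.52-fold and the smallest adjusted p of the 16 probes. The probes A_52_P44949 and A_52_P532910 rose by 0.48 ± 0.09 and 0.56 ± 0.11 with Rspo2, by 0.70 ± 0.09 and 0.64 ± 0.11 with Wnt3a, and by 0.90 ± 0.09 and 0.91 ± 0.11 with both. *Tpm1* is spliced into many isoforms, and the 3 probes did not move by the same amount. Within arrays, the log2 signal of A_51_P325173 less that of A_52_P532910 was -3.77 ± 0.01 (SD, n = 3) with BSA, -3.87 ± 0.09 with Rspo2, -3.46 ± 0.27 with Wnt3a and -3.35 ± 0.07 with both. Which transcripts each probe reads was not analysed here.

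*Tpm2* (chr4:43513726-43523583), the β-tropomyosin of smooth and slow muscle, behaved unlike *Tpm1*. The probe A_52_P418477 read 0.11, 0.083 and 0.0783 with BSA, 0.133, 0.13 and 0.155 with Rspo2, 0.0942, 0.0765 and 0.103 with Wnt3a, and 0.123, 0.0801 and 0.0555 with both. The Rspo2 arrays were the highest and did not overlap BSA, and the arrays of the combination spanned the whole BSA range. The values were 0.64 ± 0.25 with Rspo2 (adjusted p = 0.0959), 0.02 ± 0.25 with Wnt3a and -0.13 ± 0.25 with both (adjusted p = 0.966 and 0.716). The dimmer probe A_52_P315976 was below the detection flag on 3 of 12 arrays and gave 0.45 ± 0.39, -0.37 ± 0.39 and -0.40 ± 0.39, none of which passed (adjusted p = 0.436, 0.503 and 0.454).

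The myosin members of the set were dim. *Myl9* (chr2:156775408-156781657) encodes the regulatory light chain whose phosphorylation starts smooth muscle contraction. It read 0.0711, 0.036 and 0.0281 with BSA, 0.0461, 0.0316 and 0.0422 with Rspo2, 0.0432, 0.0452 and 0.0379 with Wnt3a, and 0.061, 0.0588 and 0.0675 with both. The flag for well above background was set on 1 of 3 BSA arrays, 1 of 3 Rspo2 arrays and all 3 arrays of each of the other groups. All 3 combined arrays lay above 2 of the BSA arrays, but BSA replicate 1, the array with the highest share of detected probes, was the highest of all 12. The change with both was 0.58 ± 0.28 and did not pass (adjusted p = 0.119), and those with Rspo2 and Wnt3a were -0.08 ± 0.28 and 0.01 ± 0.28. *Myh11* (chr16:14194527-14292188), the smooth muscle myosin heavy chain, was well above background on BSA replicate 1 and combined replicate 1 only and was not tested; its intensities ran from 6.52 to 43.1 units. Myosin chains outside the set, the nonmuscle heavy chain *Myh9* and the light chains *Myl12b* and *Myl6*, were well above background on all 12 arrays.

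*Vcl* (chr14:20929383-21033676) encodes vinculin, which links actin filaments to talin and α-catenin at adhesions. The probe A_51_P297131 read 1.66, 1.73 and 2.22 with BSA, 1.76, 1.9 and 1.85 with Rspo2, 2.33, 1.49 and 1.74 with Wnt3a, and 2.51, 2.91 and 3.16 with both. Neither protein alone moved it out of the BSA range as a group, and the combination lay above every other array. Its changes were -0.02 ± 0.16 and -0.03 ± 0.16 with Rspo2 and Wnt3a (adjusted p = 0.955 and 0.913) and 0.62 ± 0.16 with both (adjusted p = 0.0129). The probe A_52_P190973 gave 0.04 ± 0.14, 0.33 ± 0.14 and 0.59 ± 0.14 (adjusted p = 0.855, 0.102 and 0.00736), so only the rise with both passed here too. Whether the proteins act together on *Vcl* beyond their sum is the interaction, taken up next.

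Adding Rspo2 to Wnt3a was tested directly. Against Wnt3a alone the combination was higher at an adjusted p under 0.05 for 3 of the 16 probes, where 1.78% of all probes were higher. They were *Tagln* A_52_P517683 (0.83 ± 0.16, adjusted p = 0.0177), *Actg2* (0.46 ± 0.10, adjusted p = 0.0208) and *Acta2* A_52_P210078 (0.47 ± 0.12, adjusted p = 0.0497). None of the 3 passed with normexp background correction, with slide as a fixed term, with no filter on dim probes, by the methods' t-test after adjustment or without Wnt3a replicate 2, and 1 member passed without combined replicate 1. The *Acta2* call held in 2 of 19 alternatives, that of *Actg2* in 10 and that of *Tagln* in 13. None of the 16 passed 2-fold as well (0.413% of all probes were higher by that rule; 0 members also at an unadjusted p under 0.05 and by the methods' t-test). For 12 probes all 3 combined arrays lay above all 3 Wnt3a arrays, which 10.7% of all probes did. *Vcl* A_51_P297131 stood just outside the threshold at 0.65 ± 0.16 (adjusted p = 0.0551).

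The interaction is the change with both less the sum of the changes with each, so 0 means that the 2 effects add on the log2 scale. It passed for 0 of the 16 probes by limma, where 8.90% of all probes passed, and no other test was run on it. At an unadjusted p under 0.05 it was above 0 for 3 probes, *Vcl* A_51_P297131 (0.66 ± 0.23) and both *Tagln* probes (0.37 ± 0.14 and 0.58 ± 0.23), and below 0 for 1, *Tpm2* A_52_P418477 (-0.78 ± 0.35). Without Wnt3a replicate 1 the *Vcl* probe passed (0.84 ± 0.19, adjusted p = 0.038), and without combined replicate 1 the *Tpm2* probe passed (-1.08 ± 0.27, adjusted p = 0.0379). *Acta2*, *Cnn2* and *Tpm1* had interactions between -0.29 and 0.18. The SE of the interaction ran from 0.12 to 0.55, and values well above their SE did not pass. The 0.66 ± 0.23 of *Vcl* A_51_P297131, for example, had an adjusted p of 0.0935 by limma. With 3 arrays a group, interactions of such size could go uncalled. The direction over the members depended on the normalization. In the main fit 7 of the 16 interactions were above 0, with a median of -0.08. Normexp background correction gave 8, with a median of 0.04. Quantile normalization gave 13, with a median of 0.27, while the median over all probes was -0.01.

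Over the 12 arrays the members' patterns were alike to different degrees, described here by Pearson's r with the *Acta2* probe A_51_P450957; the arrays share their treatment groups. Probes of *Tpm1* reached 0.925 to 0.983, *Cnn2* 0.969, *Actg2* 0.935, the other *Acta2* probes 0.836 to 0.926 and *Tagln* 0.792 and 0.872. *Vcl* followed at 0.551 and 0.635 and *Myl9* at 0.442, and the 2 *Tpm2* probes were at -0.113 and 0.0482. Among 20525 other probes with a gene symbol, the 5 with the highest r belonged to *Creb1* (0.988), *Zfp330* (0.986), *Ino80c* (0.985), *2700099C18Rik* (0.983) and *Prrx1* (0.982). Their changes were smaller than those of *Acta2*, at 0.28 to 0.35 with Rspo2, 0.30 to 0.43 with Wnt3a and 0.52 to 0.63 with both.

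Sequence before the start of transcription was read from RefSeq (GRCm38.p6), in a table that held 7 of the 10 genes: *Acta2*, *Cnn1*, *Cnn2*, *Myl9*, *Tpm1*, *Tpm2* and *Vcl*. The 250 bases before each start were searched on both strands. An exact CArG box, the site of *Srf*, occurred in 3 of these 7, *Cnn2*, *Myl9* and *Vcl*, and in 1.47% of the 32851 windows in the table. A CArG-like match, in which 1 base of the A/T core is G or C, occurred in 2, with 2 matches in *Acta2* and 1 in *Myl9*, and in 7.24% of all windows. The stretches are shown for the genes with a match. *Cnn2* and *Vcl*, with an exact box, and *Acta2*, with CArG-like matches alone, rose with the combination. *Tpm1*, with neither kind of match, rose as well. *Myl9*, with an exact box of other letters, did not pass. Its change of 0.58 ± 0.28, read near background, was close in size to the 0.62 and 0.59 of the *Vcl* probes. Whether the letters bear on the response was not tested. Capitals mark the CArG or CArG-like match, and every stretch reads 5′ to 3′ on the strand of the gene.
Acta2, chr19:34255438-34255467, minus strand: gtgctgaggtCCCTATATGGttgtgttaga
Acta2, chr19:34255388-34255417, minus strand: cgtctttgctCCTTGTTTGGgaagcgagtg
Cnn2, chr10:79988504-79988599, plus strand: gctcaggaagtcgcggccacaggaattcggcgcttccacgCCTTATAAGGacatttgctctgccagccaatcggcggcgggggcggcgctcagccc
Myl9, chr2:156775263-156775407, plus strand: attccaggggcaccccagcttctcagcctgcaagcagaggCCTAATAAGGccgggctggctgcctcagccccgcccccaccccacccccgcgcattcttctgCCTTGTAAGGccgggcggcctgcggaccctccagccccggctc
Vcl, chr14:20929148-20929230, plus strand: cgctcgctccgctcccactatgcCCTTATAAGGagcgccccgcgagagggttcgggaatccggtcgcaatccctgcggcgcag

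The exact box began 56 bases before the start in *Cnn2*, 161 in *Myl9* and 227 in *Vcl*, and the *Acta2* matches began 84 and 34 bases before it. The *Cnn2* and *Vcl* boxes had the same letters. The MCAT letters CATTCC, bound by Tead factors, occurred once each in the windows of *Acta2*, *Tpm1* and *Vcl* and in 12.6% of all windows, and did not overlap the CArG matches. The Tcf/Lef letters CTTTGAT or CTTTGAA occurred in 0 of the 7 windows and in 7.48% of all windows. *Cnn1* and *Tpm2* held none of the letters searched. The matches in *Acta2* and *Tpm1* lie inside the longest gene model, and a match is a description of letters, not a shown binding site.

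The near relatives of the 10 genes were measured as a list of 16 paralogs, of which 14 were tested by their brightest probe. With both proteins 8 of the 14 rose, where 21.9% of all probes were higher, and the other 6 did not pass. The median was 0.32, with 0.04 over all probes. The largest rises were those of the striated muscle actins, *Actc1* of heart (1.30 ± 0.17, 2.47-fold, adjusted p = 0.000211) and *Acta1* of skeletal muscle (1.25 ± 0.18, 2.38-fold, adjusted p = 0.000498). Wnt3a alone raised 8 of the 14 (18.3% of all probes) and Rspo2 alone 4 (10.9%). These are the actins whose sequence is closest to that of *Acta2* and *Actg2*, so the caution on separating them applies.

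Of 16 tested genes among other smooth muscle contractile genes, 6 rose and 2 fell with both proteins, where 21.9% of all probes were higher and 17.3% lower. The median was 0.26, with 0.04 over all probes. *Fhl1*, a LIM-domain protein of muscle, rose 3.26-fold (1.70 ± 0.12, adjusted p = 2.72e-06), and 2.46-fold with Wnt3a alone. *Ppp1r14a*, an inhibitor of the phosphatase that relaxes smooth muscle, rose 2.42-fold (1.27 ± 0.33, adjusted p = 0.0108) from a level well above background on 1 of 3 BSA arrays. Wnt3a alone raised 4 and lowered 1 of the 16, where 18.3% of all probes were higher and 13.2% lower. Rspo2 alone raised 4 and lowered 1, where 10.9% were higher and 5.93% lower. The genes were not all shared: *Ppp1cb* rose with Wnt3a (adjusted p = 0.0162) and *Lmod1* with Rspo2 (0.33 ± 0.07, adjusted p = 0.0203). *Lmod1* was also 1 of the 2 genes that fell with both proteins (-0.20 ± 0.07, adjusted p = 0.0447). The other was *Ppp1r12b*, which was lower with Rspo2, Wnt3a and both. Its changes were -0.80, -0.79 and -0.86, each ± 0.14 (adjusted p = 0.0103, 0.00244 and 0.000822).

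Among 15 focal adhesion partners of vinculin, 3 rose and 3 fell with both proteins, near the 21.9% higher and 17.3% lower of all probes, and the median was 0.01, with 0.04 over all probes. *Tns1*, a tensin that binds actin at adhesions, fell to 0.383 of BSA (-1.39 ± 0.19, adjusted p = 0.000328) and was the only 1 of the 15 past 2-fold, where 3.79% of all probes were that much lower.

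**Figure D3:**
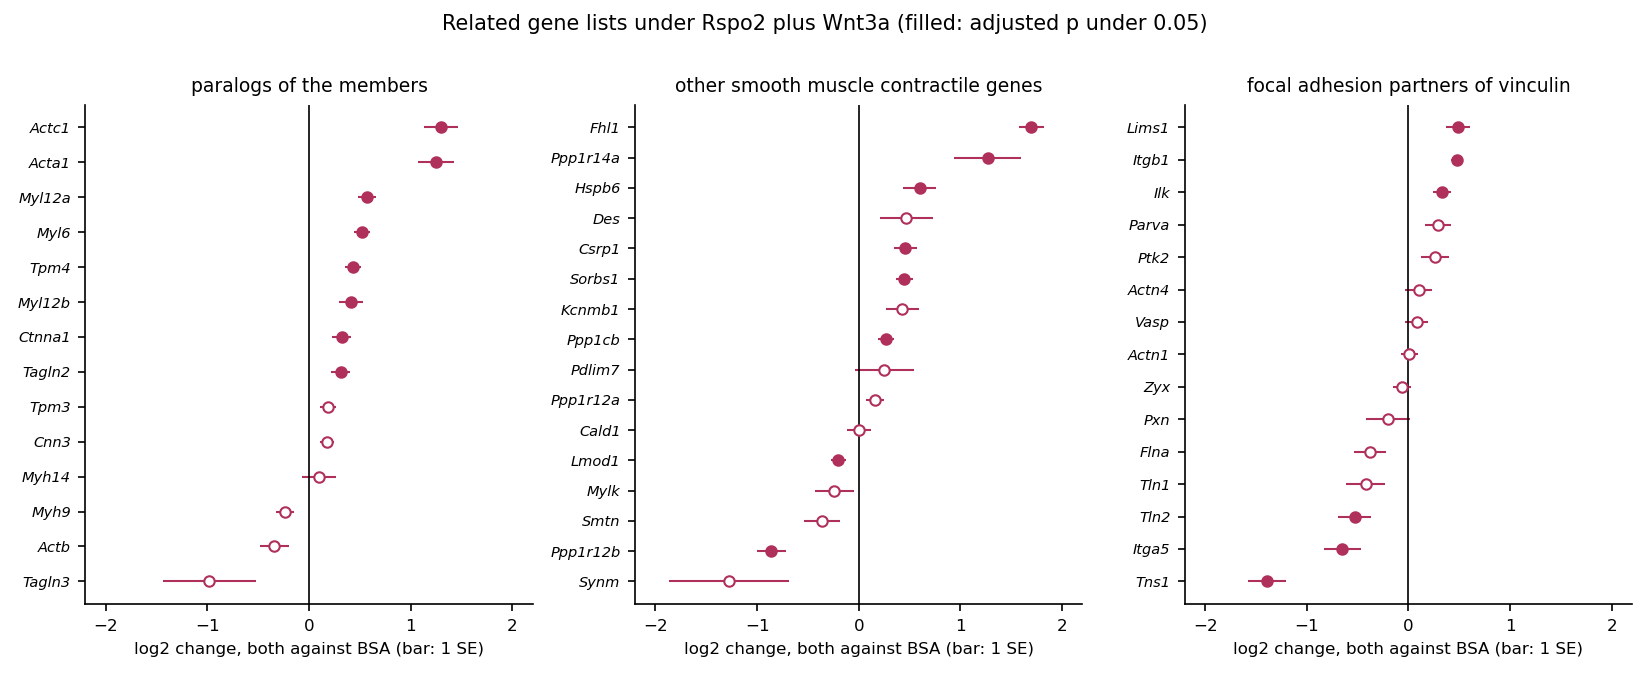
Log2 change of each tested gene of 3 related lists with Rspo2 plus Wnt3a against BSA, by its brightest probe, with bars of 1 SE; filled points have an adjusted p under 0.05. Filled points lie to the right of 0 for paralogs (8), on both sides for other contractile genes (6 and 2) and on both sides for focal adhesion partners (3 and 3).

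Markers of other cell types also moved with the treatments. The summed relative signal of the basal myoepithelial markers ran from 12.4 to 12.7 on BSA arrays, 12.2 to 14.6 on Rspo2 arrays, 17.7 to 19.2 on Wnt3a arrays and 24.1 to 27.3 on combined arrays; *Krt14* made up most of it and rose by 1.24 (adjusted p = 8.28e-06), while *Trp63*, *Krt17* and *Itgb4* fell by 0.40, 0.35 and 0.64. The sum of the fibroblast and mesenchymal list was 572 to 579 with BSA and 596 to 620 with both, with 10 of its 11 genes above background throughout and *Thy1* on 0 arrays. The bright *S100a4* and *Vim* weigh most in that sum, and single genes of the list moved both ways with both proteins. *Twist1* rose by 1.02 (adjusted p = 6.61e-05) and *Zeb1* by 0.25 (adjusted p = 0.0348), while *Pdgfra* fell by 1.37 (adjusted p = 8.77e-06), *Col3a1* by 0.85 (adjusted p = 0.00156) and *Pdgfrb* by 0.60 (adjusted p = 0.0015). The pericyte list fell from 1.26 to 1.40 with BSA to 0.46 to 0.49 with both through *Mcam* (-1.59), and its defining gene *Rgs5* was on 0 arrays. The skeletal and cardiac list went from 6.08 to 6.49 with BSA to 10.3 to 11.9 with both through *Tnnt2* (0.83), with *Myod1* and *Myog* on 0. In RNA of whole monolayers, fewer cells of a type and less RNA per cell cannot be told apart, and the part of these markers in the members' changes was not tested.

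Slide is the main limit. Within slide 1, Rspo2 replicate 1 lay above the mean of the 3 BSA arrays for 14 of the 16 probes (53.8% of all probes) and above all 3 for 10 (37.1%), by 0.22 to 0.77 for *Acta2* and 0.32 to 0.52 for *Tpm1*. Within slide 3, the mean of the combination lay above Wnt3a replicate 3 for 14 probes (49.3% of all probes) and all 3 of its arrays did so for 13 (28.9%), by 0.20 to 0.66 for *Acta2*, 0.35 and 0.89 for *Tagln* and 0.71 and 0.56 for *Vcl*. Within slide 2, the mean of Wnt3a less that of Rspo2 was 0.00 to 0.56 for *Acta2*, -0.02 to 0.47 for *Tpm1* and 0.49 and 0.79 for *Tagln*. It was -0.01 and 0.37 for *Vcl* and -1.15 and -0.74 for *Tpm2*. No slide held BSA together with Wnt3a or the combination. With slide as a fixed term, BSA and the combination are linked through 1 Rspo2 array on slide 1, the Rspo2 and Wnt3a arrays of slide 2 and 1 Wnt3a array on slide 3. The changes then kept their sign for all 16 probes with the combination, with a median of 0.85, but some moved in size. *Myl9* went from 0.58 to 1.14, *Tpm2* A_52_P315976 from -0.40 to -1.39 and *Tpm1* A_52_P532910 from 0.91 to 0.61. The SE rose and 4 probes passed instead of 13, where 0.809% of all probes were higher.

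Those 4 were *Acta2* A_52_P210078 (1.51 ± 0.28, adjusted p = 0.0289), *Acta2* A_52_P420504 (0.87 ± 0.17, adjusted p = 0.0376), *Actg2* (0.98 ± 0.19, adjusted p = 0.0355) and *Tpm1* A_51_P325173 (1.26 ± 0.21, adjusted p = 0.0189). With Wnt3a alone and with Rspo2 alone 0 probes passed with that term, at 0.189% and 0.136% of all probes higher. The calls with Rspo2 depended on single arrays, for the members as for the whole array. Without BSA replicate 1 they fell from 7 to 1 and without Rspo2 replicate 3 to 0, while the share of all probes higher fell from 10.9% to 1.3% and 0.726%. With any single array left out, the combination raised 13 or 14 probes and Wnt3a 11 or 12.

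**Figure D4:**
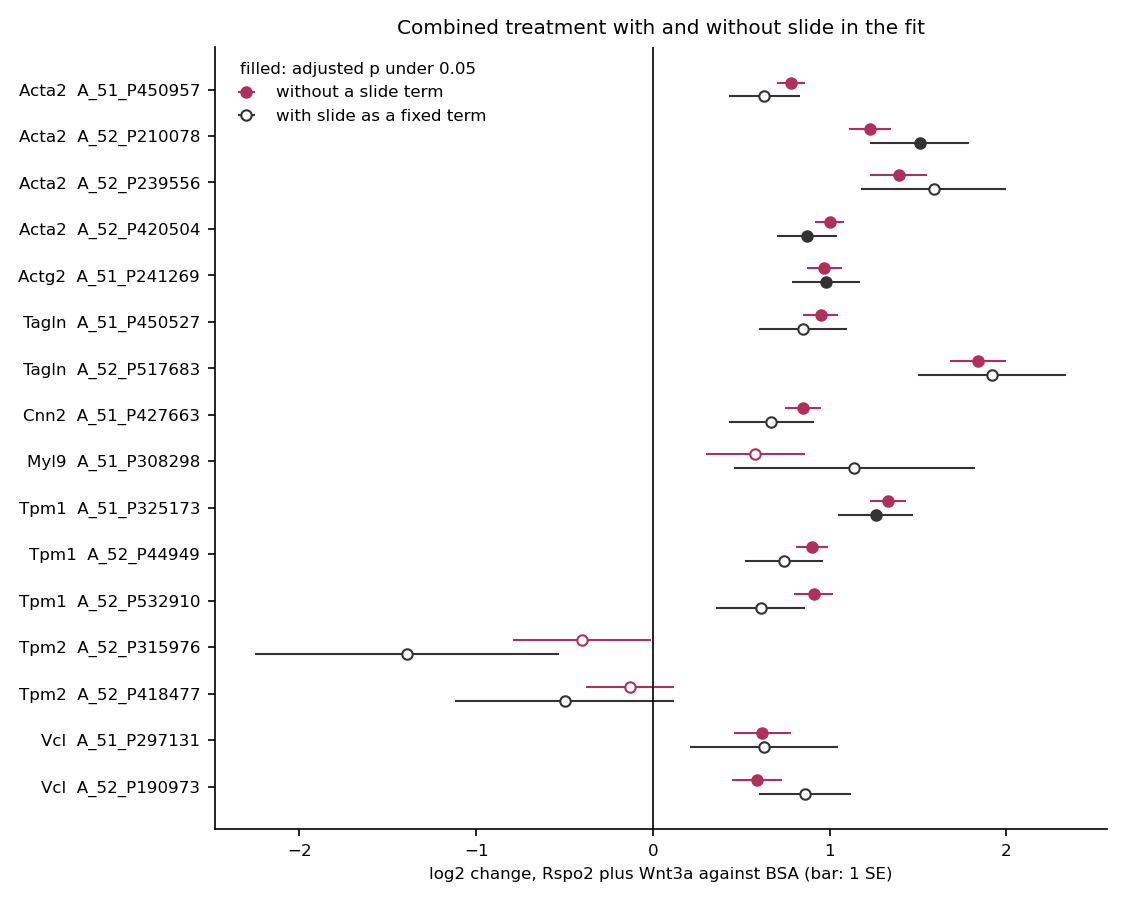
Log2 change of each tested probe with Rspo2 plus Wnt3a against BSA, fitted without a slide term and with slide as a fixed term, with bars of 1 SE; filled points have an adjusted p under 0.05. The points lie close together for Actg2 (0.97 and 0.98) and Tpm1 A_51_P325173 (1.33 and 1.26). They lie apart for Tpm2 A_52_P315976 (-0.40 and -1.39), Tpm2 A_52_P418477 (-0.13 and -0.50), Myl9 (0.58 and 1.14) and Tpm1 A_52_P532910 (0.91 and 0.61). The bars are longer with the slide term, and 4 filled points remain of 13.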

How the data were processed

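RNA of 12 C57MG monolayers was labeled with a single dye and hybridized to one array each. The authors made the intensity values with Agilent Feature Extraction 9.5.3.1, which subtracted background, rescaled bright spots from a low-gain scan and set the detection flags; no member spot was saturated. The authors also deposited ratio values, each signal divided by the 75th percentile of its array, used here as an alternative.

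From the deposited intensity, spot values marked as outliers were left out (1327 of 520548, 8 of them on member probes), spots of a probe were averaged, and log2 values were reduced by the 75th percentile of each array. A probe was tested if its 3 arrays in at least 1 group all carried the flag for signal well above background (for repeated spots, 0.5 of the spots or more). One limma model (limma 3.58.1 in R 4.3.3) held the 4 groups and all arrays, with Benjamini-Hochberg adjustment over all tested probes; 2-fold was used as a second threshold. The fit was tested on simulated data with independent noise, no slide difference and added changes of more than 2-fold. That test therefore does not bear on slide differences or on smaller changes. Named genes were all members, the genes of each related list past both thresholds, and the 5 probes most correlated with the brightest Acta2 probe. Some further list genes are named singly. A list gene was represented by its brightest tested probe. The members, the lists and the tests were chosen with earlier results of these data known. Array number and signal over background limit the precision. Same-numbered replicates did not deviate together. Figures were drawn with matplotlib 3.10.9 in Python 3.11.15. Probe sequences and protein sequences were not used here. One further related list is not reported here.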

Additional observations from a re-analysis of the deposited data

How the results depend on the processing

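All 34 member calls of the 4 comparisons between groups kept their direction under every alternative run, but not their significance, and the cause of each loss was not tested unless stated. In the order Rspo2, Wnt3a, both against BSA, both against Wnt3a, the counts of member probes past the adjusted p were 7, 11, 13 and 3. The shares of all tested probes that were higher, in the same order, were 10.9%, 18.3%, 21.9% and 1.78%, and they stand in parentheses for the other settings. The counts became 0, 1, 6 and 0 with normexp background correction (0%, 0.193%, 1.98% and 0.0484% of all probes), and 0, 0, 4 and 0 with slide as a fixed term (0.136%, 0.189%, 0.809% and 0.624%), whose SE is larger because groups and slides overlap in few arrays. Quantile normalization gave 3, 8, 13 and 5 (6.72%, 14.1%, 19.6% and 1.79%), no filter on dim probes 0, 11, 13 and 0 (0.114%, 6.03%, 8.24% and 0.432%), and the methods' t-test with adjustment 0, 5, 10 and 0 (0%, 4.87%, 8.51% and 0.044%); unadjusted, that test called 8 for both against Wnt3a. With probes well above background on all arrays only, that comparison had 6. The brightest probe of each of 8 genes gave 3, 5, 6 and 1, fewer probes being counted. Past 2-fold as well, Wnt3a had 1 probe, which became 2 with quantile normalization and 0 with the percentile taken over probes detected on all arrays, with the adjusted t-test, with the slide term or with brightest probes only; both had 4, which became 2 with the slide term and 0 with brightest probes only.

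The replicate numbers did not pair the arrays (correlations of same-numbered deviations -0.413 to 0.271, over 0.1 in 4 of 18 pairs); with the replicate block the counts were 3, 11, 13 and 2 (1.56%, 14.5%, 18.2% and 1.18% of all probes). Without single arrays the counts ranged from 0 to 8 for Rspo2 (4 without BSA replicate 2, BSA replicate 3 or Rspo2 replicate 2), 11 to 12 for Wnt3a (0 to 1 with 2-fold, 0 without BSA replicate 2, BSA replicate 3 or Wnt3a replicate 1), 13 to 14 for both (4 to 6 with 2-fold), 0 to 4 for both against Wnt3a (0 without Wnt3a replicate 2, 1 without combined replicate 1) and 0 to 1 for the interaction (0 to 1 with 2-fold). The interaction had 0 in every other alternative run, though its direction over the members moved with quantile normalization, as given above.

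Of the related lists under both proteins, added after seeing the data, genes past the adjusted p in either direction numbered 8 paralogs, 8 other contractile genes and 6 focal adhesion partners. Normexp gave 2, 1 and 1, the slide term 0, 1 and 0, and the adjusted t-test 5, 2 and 2; paralogs had 4 with quantile normalization and 5 with no filter. Probes near background, namely Myl9, Tpm2, Cnn1, Myh11 and the dimmest Acta2 probe, limit what could be seen. The Tagln probe A_52_P517683, which had the largest change, was dim too, though well above background on all 12 arrays.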
